A study of Mus musculus with 12 samples.

Results

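The neprilysin family is a group of zinc metallopeptidases anchored in the cell membrane, and 4 of its genes are described here in the embryonic mouse spinal cord: *Mme*, *Ecel1*, *Ece1* and *Ece2*. They were picked by name from the 45777 genes listed in each table. *Mme* was taken because it had the smallest p among the genes that were higher in lumbar spinal cord without *Isl2*. *Ecel1* was taken because of its known role in the branching of motor axons. The lumbar values of *Mme* therefore chose it and are given as a description, with no test, and the lumbar genotype differences of the other members are treated in the same way. *Mme* encodes neprilysin, an enzyme of the cell surface that cuts short signalling peptides such as enkephalins, substance P and natriuretic peptides and so ends their action. *Ece1* and *Ece2* encode endothelin-converting enzymes, which release active endothelin from its inactive precursor. *Ecel1* encodes a neuronal relative, also known as damage-induced neuronal endopeptidase, that is needed for motor nerve endings to spread within muscle and whose own substrate is not established.

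Total RNA was sequenced from ventral spinal cord of mouse embryos at E12.5, when motor neurons (MNs) of the limb levels send axons into the limbs, cut out around the *Hb9::GFP* reporter, a transgene that makes motor neurons fluoresce. There were 4 groups of 3 libraries. Brachial Het and Lumbar Het came from embryos labelled *Isl2* +/- (heterozygote), and Brachial KO and Lumbar KO from embryos labelled *Isl2* -/-, in which this LIM-homeodomain transcription factor of MNs was missing from the whole body. No wild-type embryo was included, so every comparison of genotype is against embryos that already lacked a copy of *Isl2*. The tissue was dissected, not sorted, so a lower value of a gene cannot tell fewer cells of a type from less RNA per cell. Values are TPM, a level per transcript length, rescaled between libraries to the same typical gene, and differences were fitted on log2(rescaled TPM + 0.1).

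The RNA counted for the targeted gene was lower, but not absent, in the KO libraries. By the paper's account the null allele has exons replaced by a neomycin cassette. Values here are for the whole gene, so they do not measure the loss of those exons. *Isl2* stood at 8.29 to 9.68 rescaled TPM in Brachial Het and at 4.46 to 7.25 in Brachial KO, and at 8.40 to 10.3 in Lumbar Het and 6.51 to 8.21 in Lumbar KO, so that each KO library was below each Het library of its level. The same held for 10.3% of genes tested in the brachial and 5.51% in the lumbar cord. The fitted log2 differences of *Isl2* were −0.61 (SE 0.18, adjusted p = 0.359) in the brachial and −0.35 (SE 0.13, adjusted p = 0.999) in the lumbar cord, in limma. Aligned depth was 4.48 to 6.64 Gb per library and 22983 to 24191 genes had a value above 0. The library of least depth, Brachial KO replicate 3, also had the highest sum of blood markers. Sex was read from Y-linked genes, and each group held both sexes, with 2 males in 3 libraries except Lumbar Het, which held 1.

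The members share a catalytic centre, the zinc-binding motif histidine-glutamate-any-any-histidine, which occurs once in the longest complete coding sequence of each. The stretch of coding sequence around it is shown because it is the feature that all members share. The sequences are from the GENCODE mouse annotation of GRCm38, 45 bases each, written 5′ to 3′ on the strand of the gene, with the 5 codons of the motif in capitals.
Mme, chr3:63362006-63362050, plus strand, exon 18 of 23: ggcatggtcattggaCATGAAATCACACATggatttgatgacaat
Ecel1, chr1:87149785-87149829, minus strand, exon 12 of 17: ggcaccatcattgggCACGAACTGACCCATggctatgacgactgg
Ece1, chr4:137957157-137957201, plus strand, exon 17 of 20: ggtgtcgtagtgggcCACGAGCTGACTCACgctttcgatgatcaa
Ece2, chr16:20643875-20643919, plus strand, exon 16 of 19: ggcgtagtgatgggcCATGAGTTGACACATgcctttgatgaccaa

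*Ece1* and *Ece2* shared 34 of the 45 bases, and *Mme* and *Ece2* nearly as many, 33. *Mme* and *Ecel1* shared 31, *Ecel1* and *Ece2* 28, *Mme* and *Ece1* 26, and *Ecel1* and *Ece1* only 25. The motif begins at codon 584 of 750 in *Mme*, 612 of 775 in *Ecel1*, 590 of 753 in *Ece1* and 600 of 763 in *Ece2*, so it lies at a like depth in all of them. In the tables the genes occupy chr3:63295211-63383713 (*Mme*, NCBI gene 17380), chr1:87142874-87157085 (*Ecel1*, 13599), chr4:137862237-137965229 (*Ece1*, 230857) and chr16:20629851-20645915 (*Ece2*, 107522) of mm10, the same build. *Ece2* lies inside a read-through gene on its own strand, Eef1akmt4-ece2, which was listed at 0 in all 12 libraries, so the reads of the pair cannot be told apart. *Ecel1* overlaps Gm51638, a noncoding RNA on the opposite strand with a mean of 0.33 rescaled TPM, far below *Ecel1* itself.

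The members were expressed at very different levels, in the same order everywhere. *Ecel1* was the highest, with a mean of 47.6 rescaled TPM over the 12 libraries, above 79.7% of the 13288 protein-coding genes compared. *Ece1* followed at 10.8 (above 39.5%), *Ece2* at 6.55 (above 28.6%) and *Mme* at 1.33 (above 8.07%). This order held in 12 of 12 libraries. Within a library *Ece1* was at 1.28 to 2.28 times *Ece2* (median 1.61) and *Ecel1* at 3.18 to 6.04 times *Ece1* (median 4.41). *Ece2* was at 1.77 to 32.6 times *Mme* (median 9.27), and at 1.77 to 1.95 times in the 3 Lumbar KO libraries. Of the summed level of the 4 genes, *Ecel1* made up 76.0% ± 0.8 (SD, n = 3) in Brachial Het, 73.1% ± 1.0 in Brachial KO, 72.4% ± 0.4 in Lumbar Het and 63.3% ± 2.3 in Lumbar KO. The share of *Mme* in the same groups was 0.37%, 0.51%, 2.07% and 6.40%.

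**Figure D1:**
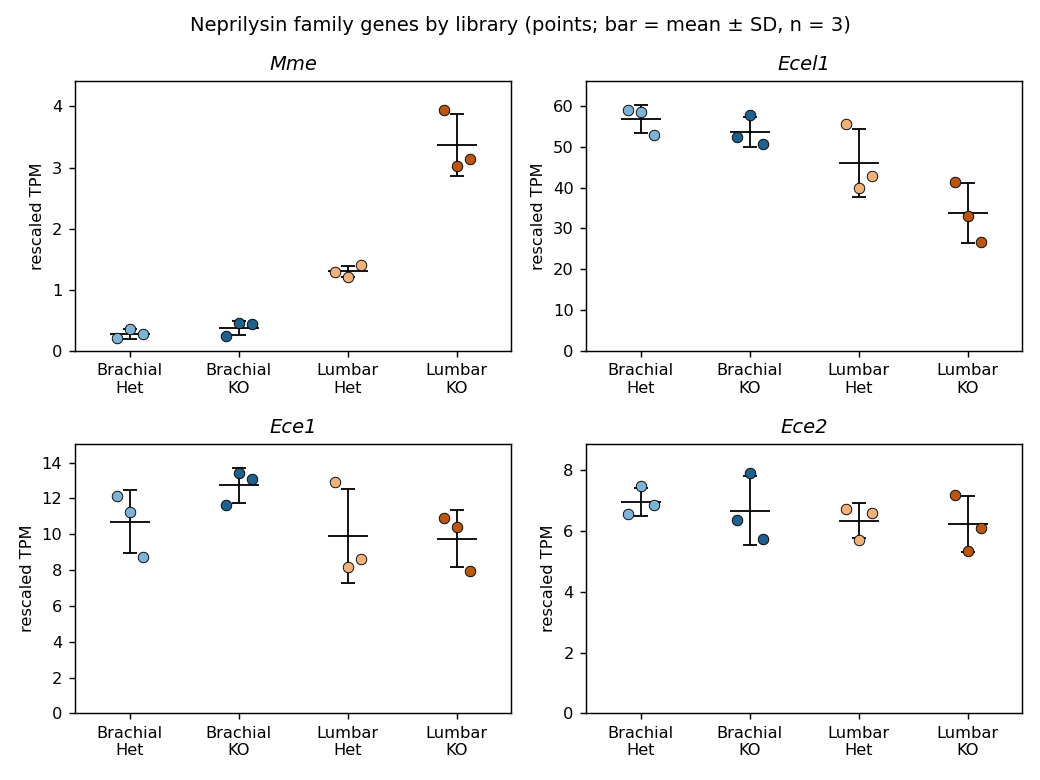
Level of each member in rescaled TPM (vertical axis, starting at 0) in the 4 groups (horizontal axis), with a point for each library and a bar for the mean ± SD of 3. *Mme* was at 0.20 to 0.45 in the brachial libraries and at 3.03 to 3.94 in Lumbar KO, while *Ecel1* was lowest in Lumbar KO, at 26.7 to 41.5, and *Ece1* and *Ece2* overlapped between the groups of each level.

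*Mme* was near the floor of the brachial libraries and clearly present in the lumbar ones. It stood at 0.20, 0.36 and 0.27 rescaled TPM in Brachial Het and at 0.24, 0.45 and 0.43 in Brachial KO. In Lumbar Het it reached 1.29, 1.20 and 1.40, and in Lumbar KO 3.94, 3.03 and 3.13. Every lumbar library was above every brachial one, as for 3.64% of the genes tested between levels, and every Lumbar KO library was above every Lumbar Het one. In the lumbar cord the mean of Lumbar KO, 3.37 ± 0.50 (SD, n = 3), was 2.60 times that of Lumbar Het, 1.30 ± 0.10, a log2 difference of 1.30 (SE 0.19, 95% interval 0.87 to 1.74). The p of this difference was the smallest of 161 genes that were higher in Lumbar KO by the study's threshold, a log2 difference beyond 0.5 with an unadjusted p under 0.05, which 0.975% of the 16511 genes tested passed upwards. By the size of the log2 difference *Mme* ranked 45 of the 161, and 6 of the 64 that code for protein. Since *Mme* was chosen for its lumbar difference, neither rank is a finding. In the lumbar cord 4.43% of genes had all KO libraries above all Het libraries, and 0 genes passed an adjusted p of 0.05 in limma, against 805 with an unadjusted p under 0.05.

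In the brachial cord, whose values the choice of *Mme* did not use, a genotype difference was not detectable. The means were 0.28 ± 0.08 and 0.37 ± 0.12 (SD, n = 3), the groups overlapped, and the exact permutation test gave p = 0.3, where 3 against 3 libraries cannot go below 0.1. *Mme* was under the filter of a mean of 0.5 TPM there, and a limma fit without that filter gave a log2 difference of 0.32 (SE 0.33, 95% interval −0.47 to 1.10, adjusted p = 0.69). That value was 0.17 without Brachial Het replicate 1, 0.19 without Brachial KO replicate 2, 0.54 without Brachial KO replicate 1 and 0.10 with a pseudocount of 1. The 95% interval reaches up to the lower part of the lumbar one, and whether the genotype difference itself differed between levels was not tested. Between levels, *Mme* was 4.69-fold higher in Lumbar Het than in Brachial Het and 9.02-fold higher in Lumbar KO than in Brachial KO. Over all 12 libraries the log2 difference was 2.40 (SE 0.23, 95% interval 1.91 to 2.89), given without a test because it rests on the same lumbar values.

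*Ecel1* was the member that differed between levels by a test that its choice did not use. It stood at 59.1, 58.7 and 52.9 rescaled TPM in Brachial Het and at 52.5, 57.8 and 50.8 in Brachial KO. In Lumbar Het the values were 55.6, 40.0 and 42.8, and in Lumbar KO 41.5, 33.1 and 26.7. The brachial libraries lay close together, and only Lumbar Het replicate 1 reached into their range. The 6 lumbar libraries had a mean of 40.0 ± 9.8 (SD, n = 6) against 55.3 ± 3.6 in the 6 brachial ones, a log2 difference of −0.50 (SE 0.12, 95% interval −0.75 to −0.25, adjusted p = 0.0105 in limma). Libraries of both levels may share embryos, which this fit does not take into account. The exact permutation of level within genotype gave p = 0.01, where 0.005 is the smallest it allows. An adjusted p under 0.05 was reached by 18.5% of the 16736 genes tested between levels, 9.65% of them downwards, so a call of this kind was common, and of the 3 members tested between levels *Ecel1* was the 1 that passed. Within Het the lumbar cord differed from the brachial one by −0.31, and within KO by −0.69. Leaving out any library kept the call, with values from −0.59 to −0.41.

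Between genotypes *Ecel1* had a lower mean in Lumbar KO than in Lumbar Het, but the groups overlapped. The lumbar means were 46.1 ± 8.3 in Het and 33.8 ± 7.4 in KO (SD, n = 3), a log2 difference of −0.46 (SE 0.18, 95% interval −0.87 to −0.05), described and not tested, with Lumbar KO replicate 1 inside the range of Lumbar Het. It shrank to −0.30 without Lumbar KO replicate 3. The brachial means were 56.9 ± 3.4 and 53.7 ± 3.6 (log2 difference −0.08, SE 0.08, 95% interval −0.27 to 0.10, adjusted p = 0.612 in limma, exact permutation p = 0.2). The brachial interval leaves room for at most a small fall there.

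Of 10 MN markers 2 passed between levels, where 18.5% of all genes passed. *Prph* (peripherin, an intermediate filament of neurons) and *Slc5a7*, the choline transporter, were lower in the lumbar cord, 0 were higher and 8 did not pass, 6 of the 10 had positive differences, and the median was 0.13 on the log2 scale, against 0.01 for all genes. *Prph* was at 224 to 318 rescaled TPM in the brachial and at 30.9 to 76.4 in the lumbar libraries. The summed level of the other 9 markers was 229 to 270 in the brachial and 191 to 306 in the lumbar libraries, which overlapped, and none was at 0. In the lumbar cord this sum was 225 to 306 in Het and 191 to 286 in KO. Between the lumbar genotypes all 10 markers had negative differences (median −0.21, against −0.01 for all genes), and 1, *Prph*, was lower in KO by the study's threshold. The part of these markers in the values of *Ecel1* was not tested.

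*Ece1*, the widely expressed endothelin-converting enzyme, had no detectable difference in any comparison that was tested. It stood at 12.2, 11.2 and 8.76 rescaled TPM in Brachial Het, at 11.6, 13.4 and 13.1 in Brachial KO, at 12.9, 8.17 and 8.63 in Lumbar Het and at 10.9, 10.4 and 7.94 in Lumbar KO. Het and KO overlapped at both levels, and so did the brachial and lumbar libraries as a whole, although the lowest Brachial KO library was above the highest Lumbar KO one. The brachial genotype difference was 0.26 on the log2 scale (SE 0.14, 95% interval −0.06 to 0.58, adjusted p = 0.397 in limma, exact permutation p = 0.2). It was 0.12 without Brachial Het replicate 3 and 0.43 for TPM as deposited, and passed in neither. The lumbar one was −0.0040 (SE 0.20), given as a description. Between levels the difference was −0.26 (SE 0.13, 95% interval −0.54 to 0.02, adjusted p = 0.191 in limma, exact permutation p = 0.105). Lumbar Het replicate 1 decided that outcome: without it the difference was −0.36 and passed, with an adjusted p of 0.0302 in limma.

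*Ece2*, the neural endothelin-converting enzyme, was the steadiest member. Its values were 6.58, 7.48 and 6.85 rescaled TPM in Brachial Het, 6.36, 7.92 and 5.74 in Brachial KO, 6.74, 5.71 and 6.60 in Lumbar Het and 7.20, 5.36 and 6.11 in Lumbar KO. All 12 libraries fell between 5.36 and 7.92, and no group stood apart. The log2 differences were −0.07 for genotype in the brachial cord (SE 0.14, 95% interval −0.41 to 0.26, adjusted p = 0.82 in limma, exact permutation p = 0.7), −0.03 in the lumbar cord (SE 0.15, a description) and −0.12 between levels (SE 0.10, 95% interval −0.33 to 0.10, adjusted p = 0.455 in limma, exact permutation p = 0.255). In the brachial genotype comparison, where 3.1% of 16935 genes passed the study's threshold, 0 of the 3 members that could be tested did so, and their unadjusted limma p-values were 0.333 for *Ecel1*, 0.102 for *Ece1* and 0.632 for *Ece2*. Without Brachial KO replicate 3 none passed either, at −0.05, 0.23 and 0.03.

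**Figure D2:**
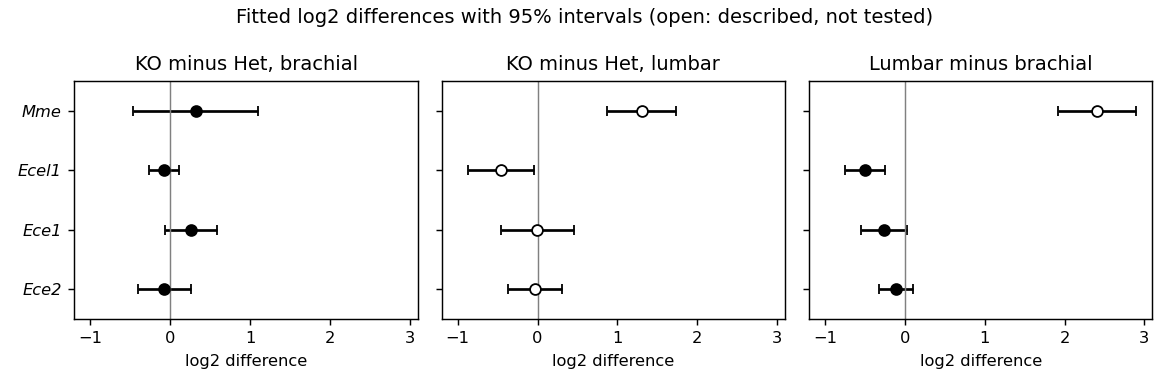
Fitted log2 difference of each member (points) with its 95% interval (bars) for KO minus Het in the brachial cord, KO minus Het in the lumbar cord and lumbar minus brachial over both genotypes. Open points are described and were not tested. Among the filled points the interval lies to a side of 0 for *Ecel1* between levels alone, from −0.75 to −0.25.

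The members varied together to an unequal degree over the 12 libraries. *Ecel1* and *Ece1* had a Pearson r of 0.68 on the log2 scale, and 0.86 once the mean of each group was taken off, so that a library high in *Ecel1* within its group tended to be high in *Ece1*. *Mme* and *Ecel1* had r = −0.81, which fell away to 0.29 within groups. These are descriptions over libraries that share their groups, and they carry no p.

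The protein-coding genes most like each member were found by Pearson r over the same 12 libraries, among 12569 with a mean of at least 1 TPM. For *Mme* the first was *Cartpt* (r = 0.97), which encodes the precursor of the CART neuropeptide and had means of 17.9, 23.1, 56.8 and 97.8 rescaled TPM in Brachial Het, Brachial KO, Lumbar Het and Lumbar KO. It was followed by *Gm50595* (0.97), *Hoxd4* (0.94), a homeobox gene of axial position, *Recql4* (0.93), a DNA helicase, and *Hmcn1* (0.93), an extracellular matrix protein. For *Ecel1* the list was *Rasgef1c* (0.96), *Mcu* (0.96), the pore of the mitochondrial calcium uniporter, *Nipal3* (0.95), *Atcay* (0.95) and *Rnase4* (0.95). *Ece1* was followed most closely by *Pelp1* (0.96), *Stat3* (0.95), *Gpc1*, *Sez6l2* and *Sorcs2* (each 0.93), and *Ece2* less closely by *Ssh3* (0.86), 1700037C18Rik (0.86), *Baalc*, *Cc2d1a* (each 0.85) and *Las1l* (0.84). With group means taken off, the leading genes included *Peg3* and *Pigb* for *Mme*, *Smarcc2* and *Gpc1* for *Ecel1*, *Plcg1*, *Pelp1* and *Map7d1* for *Ece1*, and *Ssh3* and *Arhgdig* for *Ece2*. Of the genes named, *Pelp1* for *Ece1* and *Ssh3* for *Ece2* led by both measures.

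Of the 3 other peptidases of the M13 family, to which the members belong, 2 were barely present. *Phex*, which acts in bone and phosphate balance, and *Mmel1*, a close relative of neprilysin, had means of 0.40 and 0.21 rescaled TPM and were under the filter. *Kel*, the Kell blood group protein of red cells, stood at 0.63, 1.25 and 1.17 in Brachial Het, 1.23, 1.89 and 5.73 in Brachial KO, 0.75, 1.18 and 1.26 in Lumbar Het and 1.18, 3.26 and 2.96 in Lumbar KO. The groups overlapped at both levels. Its log2 difference of KO against Het was 1.21 in the brachial cord, which did not pass (unadjusted p = 0.0557 in limma), and 1.05 in the lumbar cord, which passed the study's threshold (unadjusted p = 0.0285, adjusted p = 0.999 in limma). Markers of red cells moved with it. Over the 12 libraries its r was 0.96 with *Alas2*, the heme synthesis enzyme of red cell precursors, 0.92 with *Hbb-y*, 0.91 with *Hba-x* and 0.73 with *Hbb-bh1*, and the summed level of the blood marker list was 1412 to 2511 in Lumbar Het, 1908 to 3310 in Lumbar KO and at most 4559, in Brachial KO replicate 3. The part of blood in the *Kel* values was not tested.

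**Figure D3:**
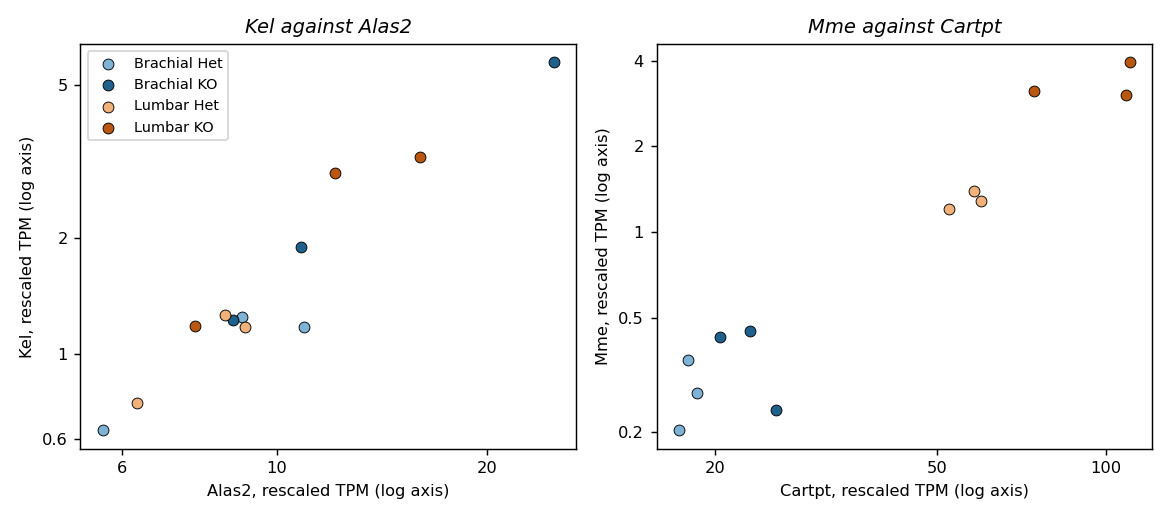
Left, *Kel* against *Alas2*, and right, *Mme* against *Cartpt*, both in rescaled TPM on log axes, with a point for each of the 12 libraries coloured by group. *Kel* and *Alas2* were both highest in Brachial KO replicate 3 (5.73 and 24.9), while *Mme* and *Cartpt* separated Lumbar KO, Lumbar Het and the brachial libraries.

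The peptides that neprilysin cuts come from precursors whose RNA was, for the greater part, lower in the lumbar than in the brachial cord. The level difference of *Mme*, which was only described, had the other sign, and a link to the precursors was not tested. Of 17 precursor genes 13 could be tested between levels, 9 were lower and 0 higher, beside 9.65% of all genes lower and 8.88% higher, and the median log2 difference was −0.73 against 0.01 for all genes. The largest was *Grp*, the precursor of gastrin-releasing peptide, which fell from 11.5 ± 2.1 to 0.82 ± 0.43 rescaled TPM (SD, n = 6; log2 difference −3.80, SE 0.25, adjusted p = 1.46e-06 in limma). *Penk*, the enkephalin precursor, fell from 5.92 ± 1.37 to 1.94 ± 0.47 (−1.57, adjusted p = 0.000276), *Calca*, which encodes calcitonin gene-related peptide, from 3.04 ± 1.20 to 0.97 ± 0.40 (−1.58, adjusted p = 0.00181), and *Nppc*, the precursor of C-type natriuretic peptide, from 2.87 ± 0.80 to 1.39 ± 0.29 (−0.98, adjusted p = 0.00364). The most abundant, *App*, the amyloid precursor, fell by 0.24 on the log2 scale (adjusted p = 0.0389), and *Sst*, the somatostatin precursor, differed by 0.31 the other way and did not pass (adjusted p = 0.0811). The count of 9 leaned on single libraries. It was 4 without Brachial Het replicate 2, Brachial KO replicate 1 or Lumbar KO replicate 2, 5 without Brachial KO replicate 2 or Lumbar Het replicate 3, and 6 to 8 without any other, and it was 4 with no filter on low values.

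Between genotypes, 3 of 13 of these precursors in the brachial cord were lower in KO by the study's threshold, which 0.874% of all genes passed downwards: *Tac1*, the substance P precursor (log2 difference −0.54), *Nts*, the neurotensin precursor (−0.65), and *Adm*, the adrenomedullin precursor (−0.61), each with an adjusted p of 0.359 in limma. The count was 1 without Brachial KO replicate 3, 5 without Brachial KO replicate 1, 1 with a pseudocount of 1 or in a fit of all 12 libraries, and 0 for TPM as deposited, in which the median of all genes shifted by 0.17. In the lumbar cord 1 of 12, *Grp*, was lower in KO (−1.07, unadjusted p = 0.0373, adjusted p = 0.999 in limma), beside 0.793% of all genes, and it did not pass without Lumbar Het replicate 3 or Lumbar KO replicate 2. The lumbar count was also 0 with a pseudocount of 1, the filter at a mean of 1 TPM or coverage in place of TPM, and 3 with embryo sex as a term. *Tac1*, *Nts* and *Adm* had lumbar differences of −0.55, −0.59 and −0.43, which did not pass. The median of the tested precursors was −0.25 at both levels, against −0.01 for all genes. Positive differences were held by 3 of 13 in the brachial and 1 of 12 in the lumbar cord. *Cck*, the cholecystokinin precursor, was under the filter in the lumbar cord and not tested, with 0.56 ± 0.19 rescaled TPM in Het and 0.10 ± 0.09 in KO (SD, n = 3).

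Among receptors of the same peptides 4 of 13 tested were lower between levels and 1 higher, beside 9.65% and 8.88% of all genes, and 2 were lower with the filter at a mean of 1 TPM. *Sstr1*, a somatostatin receptor, fell from 5.64 ± 1.43 to 1.94 ± 0.55 rescaled TPM (SD, n = 6; −1.51, adjusted p = 0.00064 in limma), and the neuropeptide Y receptors *Npy2r* and *Npy1r* fell by 1.44 and 1.31 on the log2 scale. *Npr3*, the natriuretic peptide clearance receptor, rose from 3.81 ± 0.54 to 8.15 ± 0.76 (1.08, adjusted p = 4.25e-05). *Galr1*, a galanin receptor, was lower in the lumbar cord (−0.76) and was the 1 receptor of 10 tested that was lower in Lumbar KO than in Lumbar Het (−0.69, unadjusted p = 0.0366, adjusted p = 0.999 in limma), beside 0.793% of all genes, a call that was lost without any of Lumbar Het replicates 1 and 3 and Lumbar KO replicates 2 and 3. This count of 1 was also 0 for TPM as deposited, a pseudocount of 1, the filter at a mean of 1 TPM and embryo sex as a term, and 2 with no filter. *Oprd1*, the delta opioid receptor, was under the filter, with 0.62 ± 0.01 rescaled TPM in Lumbar Het and 0.35 ± 0.10 in Lumbar KO (SD, n = 3). In the brachial genotype comparison 0 of 13 receptors passed. The more abundant *Sstr2* and *Npr2* differed between levels by 0.16 and 0.06, and did not pass.

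The endothelin axis, on which *Ece1* and *Ece2* act, was low in ligands and rich in a single receptor. *Edn1*, the endothelin-1 precursor, fell from 1.68 ± 0.33 rescaled TPM in the brachial to 0.60 ± 0.17 in the lumbar cord (SD, n = 6; −1.37, SE 0.19, adjusted p = 0.000839 in limma). *Edn2* and *Edn3* had means of 0.0040 and 0.034 over the 12 libraries and were under the filter. *Ednrb*, the receptor that binds all endothelins alike, rose from 81.6 ± 4.7 to 100.3 ± 13.5 (0.29, SE 0.07, adjusted p = 0.0178), and *Ednra* went from 2.06 to 1.70 without passing (−0.25, adjusted p = 0.371). Between levels 1 of the 3 tested genes was thus lower and 1 higher, beside 9.65% and 8.88% of all genes. For genotype 0 of the 3 passed at either level, beside 3.1% of all genes in the brachial and 1.77% in the lumbar cord.

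Of the other peptidases that degrade peptides, 2 of 11 tested were lower between levels, beside 9.65% of all genes. They were *Trhde*, which inactivates thyrotropin-releasing hormone (6.04 ± 1.10 to 2.48 ± 0.58 rescaled TPM, SD, n = 6; −1.27, adjusted p = 0.000777 in limma), and *Ace*, the angiotensin-converting enzyme (−0.81, adjusted p = 0.0406). None of the 11 was higher. The abundant *Tpp2* and *Npepps* differed by 0.0046 and −0.04. *Lnpep*, an aminopeptidase of oxytocin and vasopressin, was higher in Brachial KO (0.53, beside 2.23% of all genes higher, unadjusted p = 0.0485, adjusted p = 0.359 in limma), and in the lumbar genotype comparison 0 of 10 passed. Among 10 enzymes and chaperones that process precursors 2 were lower and 1 higher between levels, beside 9.65% and 8.88% of all genes. *Pcsk2*, the prohormone convertase, fell from 19.8 ± 1.5 to 11.7 ± 0.7 between levels (−0.75, adjusted p = 2.24e-05), *Cpe*, a carboxypeptidase, fell by 0.28, and *Pam*, the amidating enzyme, rose by 0.41 (adjusted p = 0.00103). *Scg5*, the chaperone of that convertase, was the 1 of 10 that was lower in Lumbar KO (−0.75, unadjusted p = 0.00912, adjusted p = 0.999 in limma), beside 0.793% of all genes. In the brachial cord it differed by −0.53 (unadjusted p = 0.113 in limma), and 0 of the 10 passed there. Since *Ecel1* is known from injured neurons, 8 genes of nerve injury and regeneration were also followed. None passed in any comparison, with 7, 6 and 7 tested in the brachial, lumbar and level comparisons, *Gap43* and *Sox11* being the most abundant and *Sprr1a* listed at 0 in all 12 libraries.

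**Figure D4:**
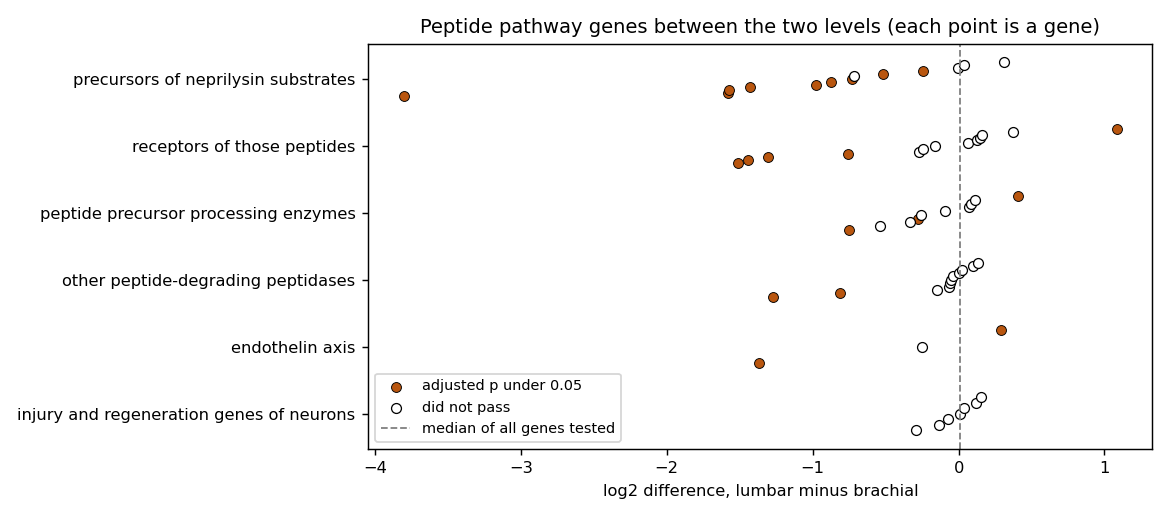
Log2 difference of lumbar minus brachial (horizontal axis) for each tested gene of 6 lists (rows), filled where the adjusted p was under 0.05, with the median of all genes as a dashed line. Of the 13 precursors tested, 9 are filled to the left of the line and 0 to the right, and 0 of the 7 injury genes are filled.

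Markers of other cells that the dissection could hold also differed between levels, beside *Mme*, *Ecel1* and the precursors. The sum of 6 neural progenitor markers was 279 to 388 rescaled TPM in the brachial and 403 to 526 in the lumbar libraries, with 3 of 6 markers higher and 1 lower, where 8.88% of all genes were higher and 9.65% lower. The mesenchyme and cartilage sum was 109 to 121 against 79.2 to 107 (4 of 6 tested lower) and the microglia and macrophage sum 13.6 to 24.1 against 7.11 to 13.8 (4 of 6 lower). Endothelial markers had 3 of 6 lower, Schwann cell and crest markers 2 of 5 lower, dorsal interneuron markers 2 of 6 lower, muscle markers 1 of 3 higher, and meningeal markers 1 of 2 higher and 1 lower, while floor plate, sensory ganglion and blood markers had none. *Myod1*, the defining muscle factor, was at 0 in all 12 libraries. Between the lumbar genotypes the ranges overlapped for progenitors (403 to 454 in Het, 443 to 526 in KO) and for mesenchyme (93.2 to 107 and 79.2 to 105), and of all these lists 1 blood marker of 5, *Hba-x*, was higher and *Prph* lower in KO by the study's threshold. Positive differences were held by 5 of 6 progenitor markers (median 0.18), 5 of 5 blood markers (0.62) and 1 of 5 mesenchyme markers (−0.27). The median of all genes was −0.01. The part of these cells in the values of the members was not tested.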

How the data were processed

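RNA-seq values of 12 libraries were used, 3 for each level and genotype, grouped by their labels. Libraries were made from total RNA with a stranded, ribosomal RNA depleted kit. Per the study's methods and the submitters' processing notes, the authors used FastQC 0.11.7, Trimmomatic 0.38, HISAT2 2.1.0, Bowtie2 2.3.4.1 and StringTie 2.1.3b on mm10. The strand setting of the quantification is not given in the sources used here. The deposited TPM values are abundances per gene length that the authors scaled to a fixed total. The deposited FPKM values were a constant multiple of TPM within a library and served only to read depth, as coverage over FPKM. The deposited coverage values, the authors' mean read depth over a gene, served as an alternative. Counts were not used here, so the DESeq2 comparison of the study was not run, and counting error is unknown.

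Symbols came from RefSeq for 45679 of 45777 gene identifiers, and 96.2% had the same coordinates there. Size factors (median of ratios, 12 libraries) put TPM on a common scale. After adding a pseudocount of 0.1, the log2 values were modelled in limma (version 3.58.1, R 4.3.3, eBayes with a trend) for genes averaging at least 0.5 TPM in the libraries compared. The pseudocount understates differences of low genes. Genotype was fitted within each level and called at a log2 difference beyond 0.5 and an unadjusted p under 0.05. Level was fitted over all 12 libraries with genotype as a term and called at a Benjamini-Hochberg adjusted p under 0.05. Tests are two-sided, with exact permutation tests for single genes, and p-values measure the spread between libraries. The fits were tested on simulated data. Python 3.11.15, pandas 2.3.3 and matplotlib 3.10.9 handled tables and plots.

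The members, gene lists, tests and alternatives were chosen with earlier results of these data known. The genes named are the members, the other M13 peptidases, the endothelin axis, up to 4 genes called per list and comparison with the smallest p, the 2 most abundant of each list, markers at 0 or moving with a result, *Isl2*, and the 5 genes of highest r to each member and 3 of highest r within groups, apart from some genes that are not reported here. *Sprr1a*, *Cck* and *Oprd1* were named after their values were seen.

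Deviations of same-numbered libraries from their group means had correlations of 0.08, 0.23 and 0.01 between Het and KO at the brachial and 0.14, −0.21 and −0.09 at the lumbar level. Across levels they were −0.02, 0.20 and 0.34 in Het and 0.03, −0.22 and 0.07 in KO, and 3 of these 6 pairs differed in sex. The numbers were therefore taken as names only. The study's methods name 3 heterozygote and 3 homozygote animals, so libraries of both levels may share embryos, and the 6 libraries of a level are then not independent of those of the other. Brachial Het held 2 males and 1 female, and Lumbar Het 1 male and 2 females. The Het libraries of both levels therefore did not all come from the same 3 embryos. Which embryos, if any, gave both levels cannot be told from the labels.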

Additional observations from a re-analysis of the deposited data

How the results depend on the processing

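*Mme* in the lumbar cord, *Mme* between levels and *Ecel1* between levels kept their direction in every alternative run, and *Ecel1* its call. The log2 difference of *Mme* was 0.92 in the lumbar cord with a pseudocount of 1, and 2.70 and 1.26 between levels with pseudocounts of 0.01 and 1. *Ece1* in the brachial genotype comparison and *Ece1* and *Ece2* between levels also kept their direction, while *Ecel1* and *Ece2* in the brachial and *Ece1* and *Ece2* in the lumbar genotype comparison changed sign in some alternatives. For TPM as deposited, in which the median of all genes shifted by 0.17 between the brachial genotypes and by −0.14 between levels, *Ecel1* and *Ece2* were at 0.093 and 0.10 in the brachial genotype comparison and *Ece1* at 0.0065 in the lumbar one. Embryo sex as a term, chosen after seeing the data, gave 0.084 for *Ece1* in the lumbar cord. Leaving out a library gave −0.20 to 0.027 for *Ece2* in the brachial cord, −0.13 to 0.20 for *Ece1* and −0.14 to 0.066 for *Ece2* in the lumbar cord, and −0.36 to −0.18 for *Ece1* between levels, where it passed without Lumbar Het replicate 1.

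Counts of genes called moved more. The brachial count of 525 was 344 with a pseudocount of 1, 793 without the filter, 1258 for TPM as deposited and 340 over protein-coding genes, and 283 to 1394 when a library was left out, 283 without Brachial Het replicate 3, 289 without Brachial KO replicate 3 and 1394 without Brachial KO replicate 1. The lumbar count of 292 was 178, 620 and 169 with a pseudocount of 1, no filter and protein-coding genes, and 292 to 443 when a library was left out (443 without Lumbar KO replicate 2). The level count of 3101 was 2057 to 3555, lowest without Brachial Het replicate 2. The cause of these shifts was not tested, beyond fewer genes being tested in some. With a replicate block, which rests on numbers that only name the libraries, the counts were 533, 306 and 2330, *Ecel1* between levels had an adjusted p of 0.0187 in limma, the precursors lower between levels were 5 of 13 and lumbar *Grp* was not called. A single fit over all 12 libraries, which the level comparison already uses, gave 593 and 256 genes called in the brachial and lumbar genotype comparisons. Without counts, what depth limits could not be computed.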
